A study of Drosophila melanogaster with 2 samples.

Results

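The genes examined here are 10 core members of the Polycomb group of Drosophila melanogaster: ph-p, ph-d, Psc, Su(z)2, E(z), Pc, pho, esc, Sce and Scm. They were listed by name, with no measured value in the rule, and all 10 were found among the 13968 protein-coding genes annotated on the 7 chromosome arms. The question put to the data was where Ravus-eGFP peaks lay on these genes. The series holds a single group: whole embryos of the Ravus-GFP strain, aged 0 to 24 h, which carry an insertion that fuses Ravus to enhanced green fluorescent protein (eGFP). Chromatin was sonicated to 200 to 800 bp, DNA bound by the fusion protein was pulled down and sequenced (ChIP-seq) in 2 samples labelled as biological replicates. Their description gives the antibody as anti-GFP, while their antibody field names Ravus. There was no second genotype, stage or treatment, the sex of the embryos was not recorded, and all embryonic cell types were pooled, so binding in few cells and weak binding in many cannot be told apart.

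Polycomb group proteins keep developmental genes, such as the homeotic genes, silent in the cells where they were not switched on. They work in several complexes. Polycomb repressive complex PRC1 compacts chromatin and ubiquitinates histone H2A, PRC2 methylates histone H3 on the lysine that the PRC1 subunit Pc then binds, and PhoRC contains the DNA-binding protein Pho, which brings the other complexes to Polycomb response elements. In Drosophila, 2 pairs of these genes are neighbouring duplicates, ph-p with ph-d and Psc with Su(z)2.

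The DNA under the peaks is shown first, because the peaks on these genes had AT-rich centres and those that ranked below the limit did not share this as a group. Each run holds the summit, the position of highest signal within a peak, with 50 bp on either side, and was read 5′ to 3′ on the + strand of the Release 6 genome from RefSeq (dm6). Capitals mark the longest unbroken run of A and T. The first 5 lie in peaks of the conservative list, the strictest set made from both replicates. These are the ph-p peaks with a signal of 873 (chrX:2137302-2137402), 440 (chrX:2137825-2137925) and 103 (chrX:2135328-2135428), the E(z) peak with a signal of 264 (chr3L:10638015-10638115) and the ph-d peak with a signal of 224 (chrX:2124045-2124145). The last 3 are the only summits at Pc (chr3L:21318050-21318150), pho (chr4:1177595-1177695) and esc (chr2L:11829467-11829567) in a ranked list made from both replicates, and none of them reached a thresholded list.
ph-p, signal 873: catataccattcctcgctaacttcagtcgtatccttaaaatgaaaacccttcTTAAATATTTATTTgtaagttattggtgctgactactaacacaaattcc
ph-p, signal 440: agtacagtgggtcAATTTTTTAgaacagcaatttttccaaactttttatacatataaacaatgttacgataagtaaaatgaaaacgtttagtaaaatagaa
ph-p, signal 103: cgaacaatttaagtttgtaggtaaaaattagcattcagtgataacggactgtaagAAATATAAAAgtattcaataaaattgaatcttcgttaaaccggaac
E(z): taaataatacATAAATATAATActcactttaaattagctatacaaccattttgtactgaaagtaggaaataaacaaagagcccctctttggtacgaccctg
ph-d: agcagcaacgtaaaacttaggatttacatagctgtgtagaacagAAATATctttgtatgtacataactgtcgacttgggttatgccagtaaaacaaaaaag
Pc: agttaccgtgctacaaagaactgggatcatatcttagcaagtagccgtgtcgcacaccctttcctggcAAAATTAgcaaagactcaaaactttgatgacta
pho: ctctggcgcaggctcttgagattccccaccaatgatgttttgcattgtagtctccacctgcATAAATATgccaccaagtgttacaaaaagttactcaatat
esc: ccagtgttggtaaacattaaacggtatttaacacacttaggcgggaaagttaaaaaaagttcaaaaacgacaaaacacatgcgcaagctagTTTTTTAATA

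Of the 10 genes, 4 had a conservative summit inside the gene or within 1000 bp of its ends, namely ph-p, ph-d, Psc and E(z), with 6 summits in all. Peaks kept in this and the other thresholded lists had an irreproducible discovery rate (IDR) of at most 0.01. A high IDR means that a peak's rank was poorly repeated between a pair of lists. At the 10 genes, every summit within this limit was kept. Elsewhere a stronger peak was left out, since the strongest ph-p peak ranked 9 in its ranked list and 8 in the conservative list. Whether all peaks left out had failed the limit was not checked. Of all protein-coding genes, 1644 (11.8%) had a conservative summit. Among the 7433 genes whose length fell within that of the Polycomb genes (1599 to 14998 bp) the share was 12.7%. The same 4 genes had 6 summits in the thresholded list of replicate 1 and 6 in that of replicate 2, in which 11.6% and 14.5% of all genes had a summit. In the further thresholded list of the series, Su(z)2 joined them, giving 5 of 10 genes and 7 summits, against 13.4% of all genes. With 10 genes and a single group the difference between the members and the rest was not tested.

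The ranked lists go far below the threshold and reach many more genes. The ranked list of the series from which the conservative list was taken held 17 summits at 8 of the 10 genes, against 41.5% of all genes, and the other ranked list of the series held 15 summits at 7 of them, against 40.9%. Each replicate's own ranked list had summits at 9 of the 10 genes, 31 summits in replicate 1 and 34 in replicate 2. In those lists 81.2% and 79.7% of all genes had a summit, so the presence of a weak summit there sets the Polycomb genes little apart. Sce was the gene with none in any of the 8 lists.

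**Figure D1:**
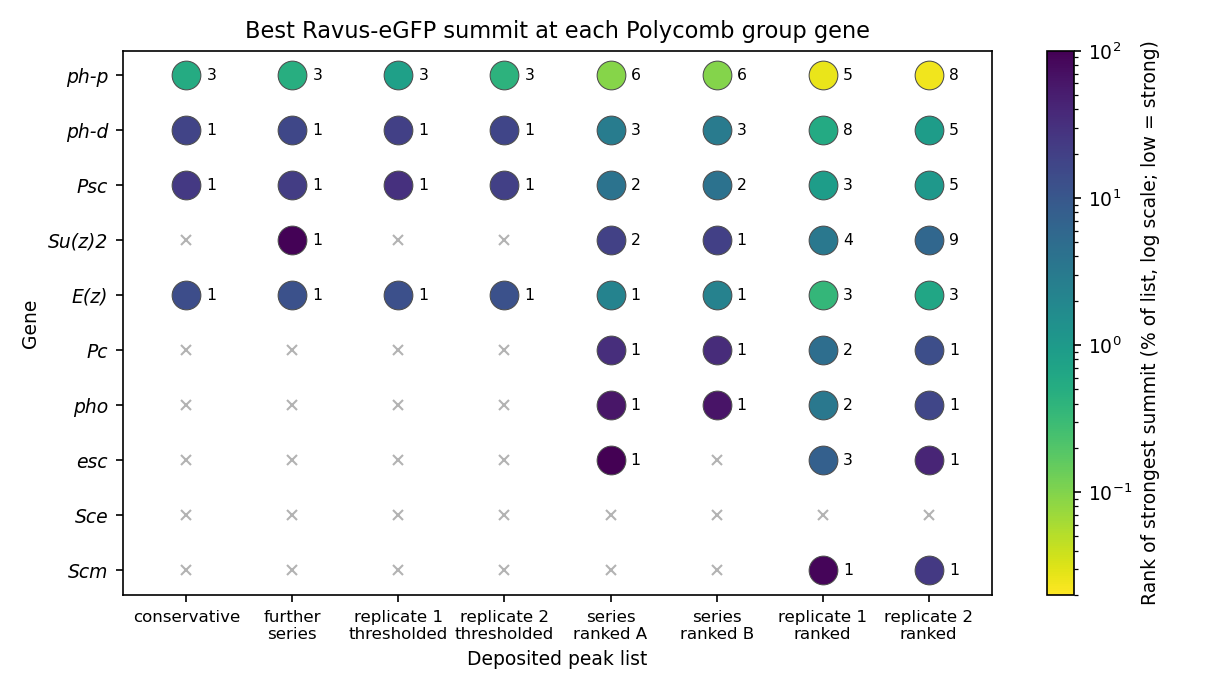
Strongest summit at each of the 10 Polycomb group genes (rows) in each of the 8 deposited peak lists (columns). The colour gives the rank of the strongest summit as a percentage of its list on a log scale, with bright colours for strong peaks, the number beside each point is the count of summits within 1000 bp of the gene, and a cross marks none. ph-p, ph-d, Psc and E(z) have a point in all 8 lists and Sce in none.

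Among the genes of PRC1, ph-p carried the strongest binding. ph-p encodes Polyhomeotic-proximal, a PRC1 subunit whose SAM domain self-associates, and lies on the minus strand of X at 2126210-2138371. It had 3 conservative summits, and 51 of all protein-coding genes (0.365%) had 3 or more. The strongest, in the peak at X:2137233-2137490, had a signal of 873 and ranked 8 of 1474. Its signal was 366.7 in replicate 1 and 515.8 in replicate 2, where it ranked 14 and 9 in the full ranked lists, so it stood near the top of both. The peak caller's signal has no scale given in the sources used here, and its size is compared only within a list.

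The ph-p gene has 3 annotated start sites, and its 2 strongest summits lay between the outer one at 2138371 and the inner ones at 2136855 and 2136622, on either side of the end of the first exon. The summit at 2137352 was in an intron of the longest transcript, 497 bp upstream of the start site at 2136855. The second summit, at 2137875 in the peak X:2137745-2138002, lay in the 5′ UTR, 496 bp downstream of the outer start site. It had a signal of 440 and rank 60, with 190.1 in replicate 1 and 256.0 in replicate 2. The third, at 2135378 in the peak X:2135223-2135532, lay in an intron 1244 bp downstream of the innermost start site, with a signal of 103 and rank 1082. It had 35.8 in replicate 1 and 65.7 in replicate 2, the largest ratio between replicates among the 6 peaks. All 3 peaks passed the threshold in both replicates.

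Neighbouring ph-p summits were 523 and 1974 bp apart, while the median gap between neighbouring conservative summits on the arms was 37694 bp. Of 1466 gaps, 22 (1.50%) were as short as the first and 131 (8.94%) as short as the second. By number of summits, with ties broken by summed signal, the genes most like ph-p were NFAT (summed signal 856.6), CG46429 and Sesn (794.9 each, from the same summits), for (701.7) and osp (574.4), each with 3 summits against a summed signal of 1415 at ph-p. These genes are 19284 to 90145 bp long and ph-p is 12162 bp long. The peaks ranked next to the strongest ph-p peak were at PNPase (signal 898) and Art3 (signal 845).

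ph-d encodes Polyhomeotic-distal, the second Polyhomeotic protein, and lies downstream of ph-p in the same direction, at X:2115727-2123286. It had 1 conservative summit, at 2124095 in the peak X:2123983-2124134, in the 2923 bp between the genes. This was 809 bp upstream of the ph-d start site at 2123286 and 2115 bp past the 3′ end of ph-p, and no other annotated gene lies between them. The signal was 224 with rank 269, and the replicates gave 95.8 and 117.7 (ranks 298 and 342) with the summit at the same base, 2124089. A weak summit 78 bp inside the ph-d 5′ end had a signal of 44.2 in the ranked list and was far from the limit, with an IDR of 0.795.

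Since ph-p and ph-d are duplicates, reads might in principle be shared between them, and this was checked on the sequence. The bodies of ph-d and ph-p align over 4480 bp at 92.0% identity, and over 2 shorter stretches of 112 bp at 84.8% and 59 bp at 91.5%. The 112 bp stretch takes in the ph-d start site and, in ph-p, the inner start site at 2136855. None of the 4 conservative summits at these genes, and none in the other thresholded lists, lay in an aligned stretch, whereas 2 summits of the ranked list did. Within 150 bp to either side of the 6 conservative summits at the Polycomb genes, the longest match elsewhere in the genome was 72 bp at 79.2% identity. The ph-p summits thus lay outside the stretches that the gene bodies share. The ph-d summit lay outside both bodies, so the comparison of bodies could not place it. The windows of the ph-d summit and of the ph-p summit at 2135378 gave no match elsewhere. Those of the ph-p summits at 2137352 and 2137875 each gave 1, of 63 bp at 88.9% and 72 bp at 79.2% identity. Where these matches lie was not recorded, and the sequence upstream of ph-d was not aligned with ph-p. The genome search filtered low-complexity sequence and kept matches with an expect value of at most 1e-05. A missing match therefore does not show that a window is unique.

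Psc encodes Posterior sex combs, the RING-finger subunit of PRC1 that compacts nucleosome arrays, and lies on the minus strand of 2R at 12965997-12980994. Its conservative summit, at 12975603 in the peak 2R:12975545-12975655, lay in an intron 5055 bp downstream of the nearest start site and so belonged to no promoter. It had a signal of 194 and rank 364, with 75.8 in replicate 1 and 109.3 in replicate 2 (ranks 470 and 394). At the Psc promoter itself a summit 121 bp downstream of a start site had a signal of 44.8 and an IDR of 0.507, outside the limit.

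Su(z)2, the paralogue of Psc, lies 15506 bp away on the plus strand at 2R:12996501-13007911, head to head with it. It reached only the further thresholded list, with a summit at 13008347, 436 bp past its 3′ end, with a signal of 75.9 and rank 1568 of 1653. In the list from which the conservative peaks were taken the same peak had an IDR of 0.0140, just outside the limit. It had a signal of 35.5 and an IDR of 0.0175 in replicate 1, and 39.7 and 0.227 in replicate 2, and so passed in neither. The bodies of Psc and Su(z)2 gave no alignment at the setting that aligned ph-d and ph-p.

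The strongest conservative peak of the Psc and Su(z)2 region fell between the genes, outside the 1000 bp window of both. It spanned 2R:12985113-12985312 with a summit at 12985217, a signal of 408 and rank 70, and passed the threshold in both replicates. The summit lay 150 bp upstream of lncRNA:CR44339, a noncoding gene, 4223 bp past the 5′ end of Psc and 11284 bp before that of Su(z)2.

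**Figure D2:**
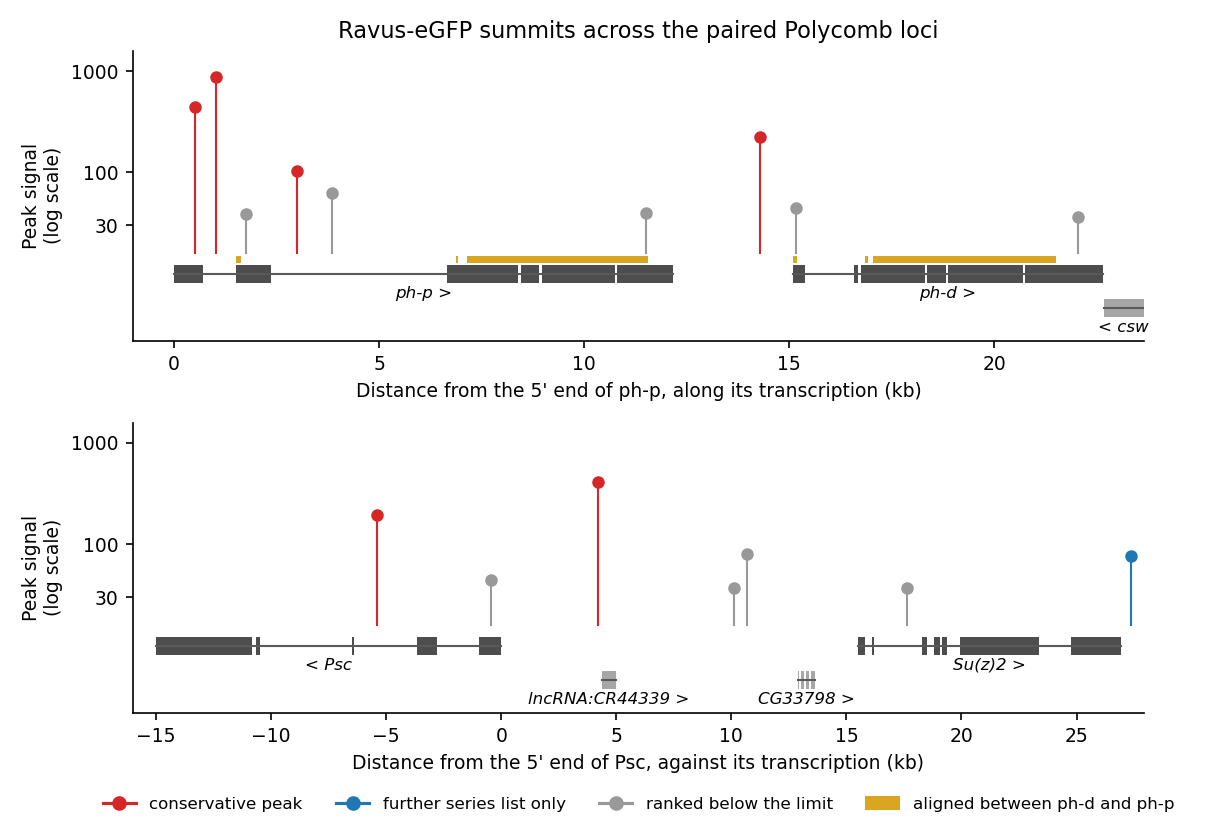
Summits across the ph-p and ph-d locus (upper panel) and the Psc and Su(z)2 locus (lower panel), by distance in kb from the 5′ end of ph-p or of Psc, with peak signal on a log scale. Red marks conservative peaks, blue the peak found in the further thresholded list of the series only, grey the summits ranked below the limit, dark boxes exons, and yellow bars the stretches that align between ph-d and ph-p. The 4 red summits of the upper panel lie outside the yellow bars, which come from the gene bodies only. The red summit of signal 408 in the lower panel lies between the genes.

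Pc and Sce, the other members in PRC1, had no thresholded peak. Pc encodes the chromodomain protein Polycomb, which binds methylated histone H3, and lies at 3L:21306138-21318020 on the minus strand. Its summit in the ranked list was 80 bp upstream of the start site, with a signal of 52.3, rank 3190 of 9602 and an IDR of 0.275. In the replicates the Pc promoter summit had a signal of 29.1 (IDR 0.0302) in replicate 1 and 26.5 (IDR 0.436) in replicate 2. The nearest conservative peak, with a signal of 278 and rank 172, lay 1567 bp past the 3′ end of Pc and 87 bp downstream of the start site of CG11309. Sce encodes the RING-finger ubiquitin ligase of PRC1 and, at 1599 bp (3R:27680431-27682029), is the shortest of the 10. Its nearest conservative summit was 24.9 kb away.

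Of the PRC2 genes, E(z) had a peak on its promoter and esc did not. E(z) encodes Enhancer of zeste, the histone methyltransferase, and lies at 3L:10634575-10638130 on the minus strand. Its conservative summit, at 10638065 in the peak 3L:10637996-10638117, was in the 5′ UTR 65 bp from the outer start site. The signal was 264 with rank 203, with 121.9 in replicate 1 and 139.2 in replicate 2 (ranks 187 and 241). The replicates' summits were 45 bp apart there, the largest distance among the 6 peaks. The gene Cnep1r2 starts on the other strand at 10638146, so the same summit lay within 1000 bp of both genes and cannot be assigned to one of them. esc encodes the WD-repeat subunit of PRC2 and lies at 2L:11827204-11829405. Its summit 112 bp upstream of the start site had a signal of 34.8 and rank 9300 of 9602 and was absent from the other ranked list of the series. It was found in replicate 1 with a signal of 24.4 and not in replicate 2.

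pho and Scm had no thresholded peak. pho encodes the DNA-binding Pleiohomeotic protein of PhoRC and lies on chromosome 4 at 1172469-1181628. Its summit in the ranked list was in an intron, 3983 bp downstream of the start site, with a signal of 39.9 and rank 5918; it had 15.6 in replicate 1 and 24.2 in replicate 2. A summit 218 bp upstream of the pho start site with a signal of 35.9 was found in replicate 1 only. The nearest conservative peak to pho was 59.1 kb away. Scm, which encodes Sex comb on midleg, a SAM-domain protein that binds Polyhomeotic, lies at 3R:9633359-9637611. Each replicate had 1 summit in Scm, at different places, with a signal of 8.87 in the 3′ UTR in replicate 1 and 21.5 in a coding exon in replicate 2.

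**Figure D3:**
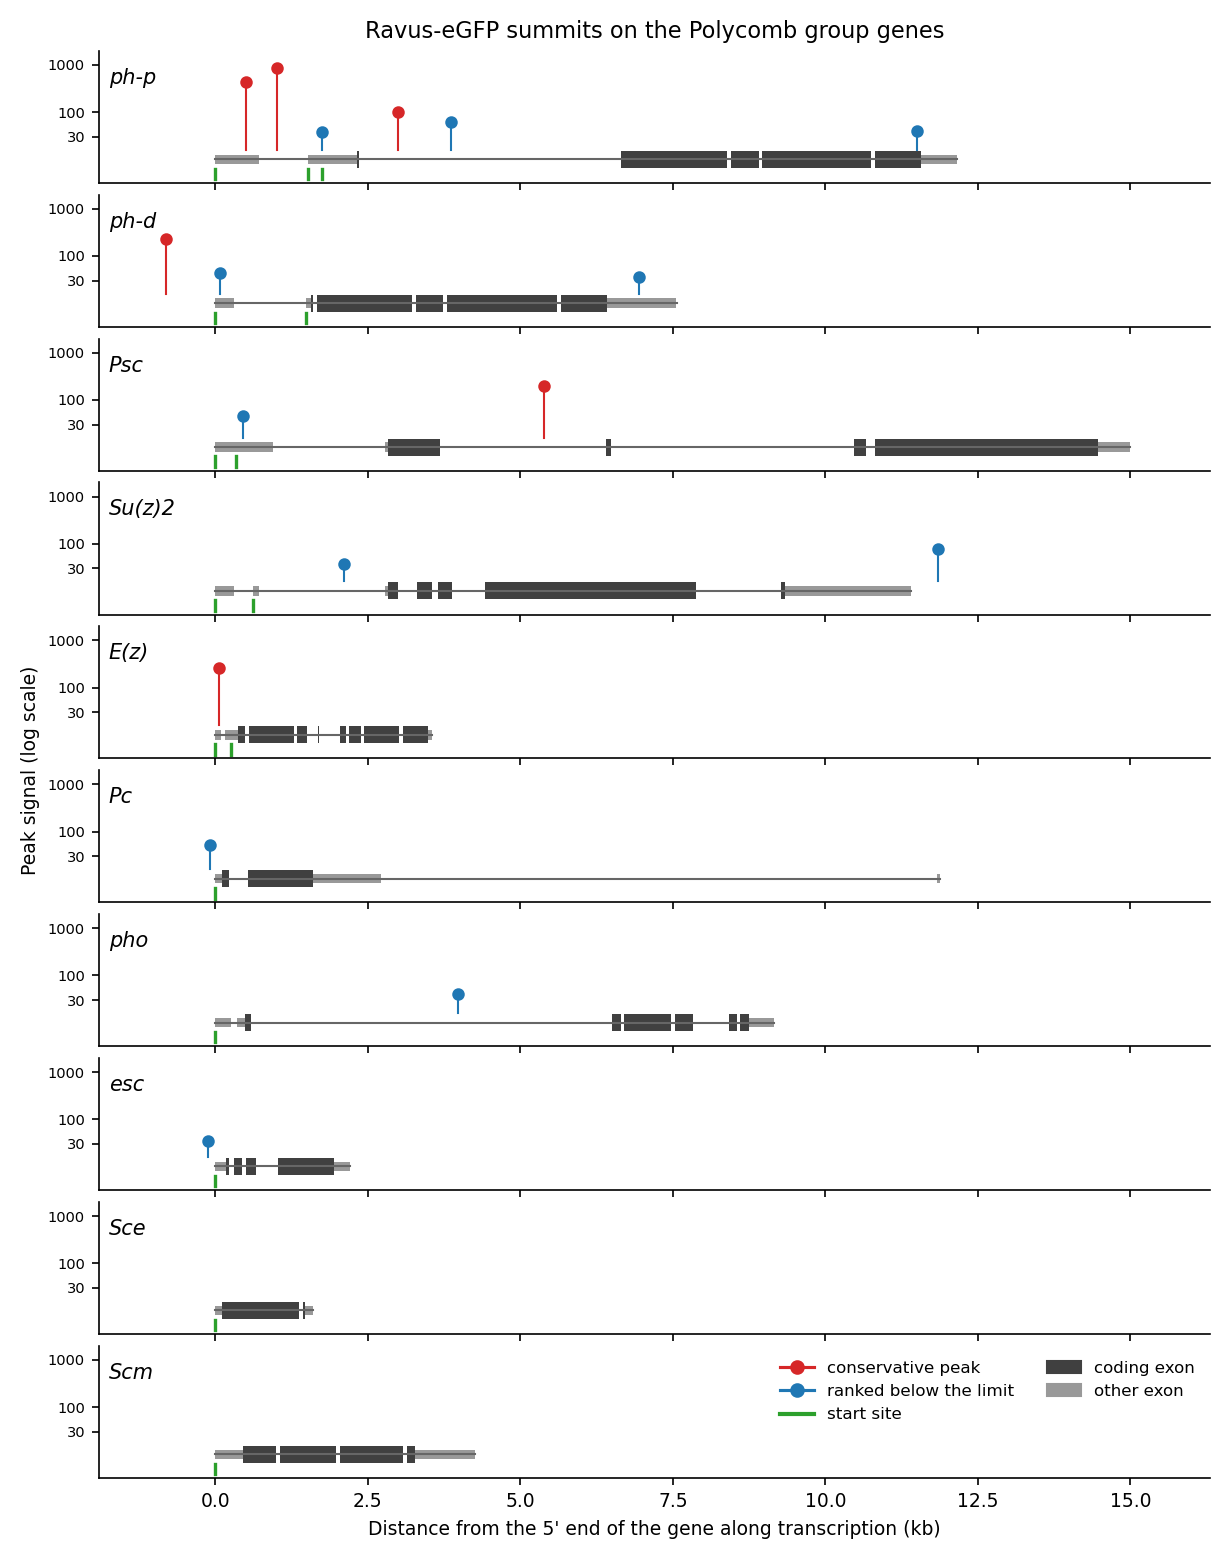
Summits on each Polycomb group gene drawn 5′ to 3′, with distance from the 5′ end of the gene in kb and peak signal on a log scale. Red marks conservative peaks and blue the other summits of the ranked list from which they were taken, green ticks are annotated start sites, and dark and light boxes are coding and other exons. Conservative summits are in the first 3 kb of ph-p, upstream of ph-d, in an intron of Psc and at the start of E(z); the blue summit past the 3′ end of Su(z)2 is the one that reached the further thresholded list.

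Taking promoter to mean within 500 bp of a start site, 3 of the 6 conservative summits were at promoters, 2 of ph-p and 1 of E(z), against 767 of all 1472 (52.1%). The other 3 were 2 in introns, against 35.3% of all, and 1 between genes, against 10.2%. By gene, ph-p and E(z), 2 of the 10 Polycomb genes, had such a promoter summit at one of their own start sites, against 7.09% of all protein-coding genes. The ph-p promoter calls lie at the edge of this distance, at 496 and 497 bp, and with 250 bp only the E(z) summit remained.

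The 6 peaks were found in both replicates. Each overlapped a peak in both thresholded lists, while 1169 of the 1467 conservative peaks (79.7%) that were found in both ranked lists did so. The conservative list was made from both replicates and holds peaks whose rank was well repeated, so this overlap is partly set by that selection. The overlap was not set beside that of peaks of like signal. Summits in the 2 replicates lay a median of 12 bp apart at the Polycomb genes, with a range of 0 to 45 bp, against 17 bp over all. The median signal in the conservative list was 244 at the 6 peaks, with a range of 103 to 873, and 132 over all 1472, and 5 of the 6 exceeded the overall median. The signal was higher in replicate 2 at 6 of 6 peaks and at 87.2% of all, and since the lists are scaled separately this need not be a difference in binding. The 6 peaks were 111 to 310 bp wide with a median of 205 bp, against a median of 310 bp over all. The weakest of them, the ph-p peak of signal 103, was the one of 310 bp. Widths were not set beside those of peaks of like signal, so narrow peaks are not shown to be particular to these genes.

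**Figure D4:**
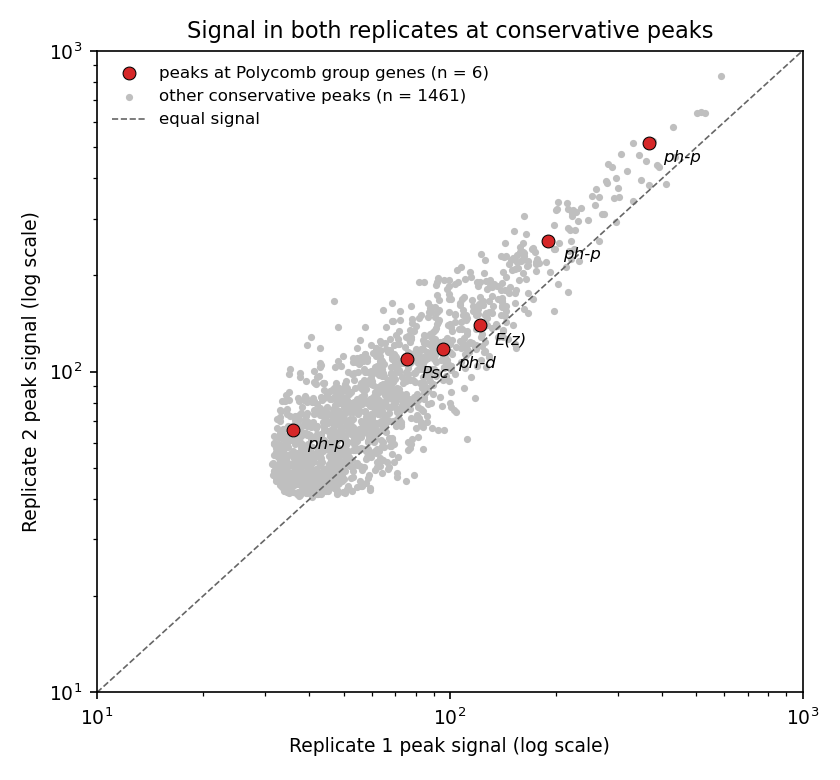
Signal of each conservative peak in replicate 1 (x axis) and replicate 2 (y axis), both on log scales, with the 6 peaks at Polycomb group genes in red and the other 1461 in grey. The dashed line marks equal signal; all 6 red points lie above it, and the strongest ph-p peak is among the highest points of both replicates.

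The centres of the 6 peaks were AT-rich. With 50 bp taken on each side, GC content averaged 29.4% ± 4.09 at the summit, and at flanking windows 300 bp away it averaged 49.0% ± 3.65 (SD over peaks, n = 6), with lower GC at the summit in 6 of 6. Across all conservative peaks the summit averaged 30.5% ± 8.50 and the flanks 44.3% ± 7.03 (n = 1472), and the summit was lower in 89.1%. By peak, summit and flanks had 32.7% and 50.99% at the ph-p peak of signal 873, 24.8% and 44.1% at the ph-p peak of signal 440, and 28.7% and 54.0% at the ph-p peak of signal 103. They had 34.7% and 50.99% at ph-d, 24.8% and 48.0% at Psc, and 30.7% and 46.0% at E(z). The summit level was thus close to that of all peaks. The flanks were higher, and the difference was -19.6 percentage points (range -25.2 to -15.3), against -13.8 over all. Peaks on 1 gene share a locus and are not replicates, and the difference between the members and the rest was not tested.

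The lowest GC lay at the summit itself only at the ph-p peak of signal 873, in 51 bp windows spaced 20 bp apart and reaching 200 bp to either side. Where windows tied, the first on the plus strand is given. It lay 20 bp away at the ph-p peak of signal 440 and at Psc, 80 bp at E(z), and 100 bp at ph-d and at the ph-p peak of signal 103, against a median of 40 bp over all conservative peaks. E(z) and ph-d had the deepest minima of the 6, at 5.88% GC at E(z), downstream in the gene's direction, and 3.92% at ph-d, upstream. Of all conservative peaks, 1.49% and 0.611% had a minimum that low, and the median was 19.6%. The minima of the other 4 peaks were 19.6 to 23.5%. The summit base itself was soft-masked in the reference, as repeat or low-complexity sequence, at 3 of the 6 peaks. These were the 2 stronger ph-p peaks and the ph-d peak, against 28.7% of all summits. The masked share of each window was not measured.

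The 11 summits at Polycomb genes that were in the ranked list but not in the conservative list did not share the AT-rich centre as a group. Their GC content averaged 46.7% ± 9.53 at the summit and 44.3% ± 7.58 in the flanks (SD, n = 11), and the summit was lower in 4 of 11. These 4 were the summits at the ph-d and Psc promoters, esc and the 3′ side of Su(z)2. The Su(z)2 summit, the one that came closest to the limit, had 33.7% at the summit and 56.4% beside it (difference -22.8 points). The Pc and pho sequences printed above each had 42.6% GC, higher than their flanks by 7.43 and 2.97 points. The printed esc sequence had 33.7% GC, with a difference of -8.91 points.

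**Figure D5:**
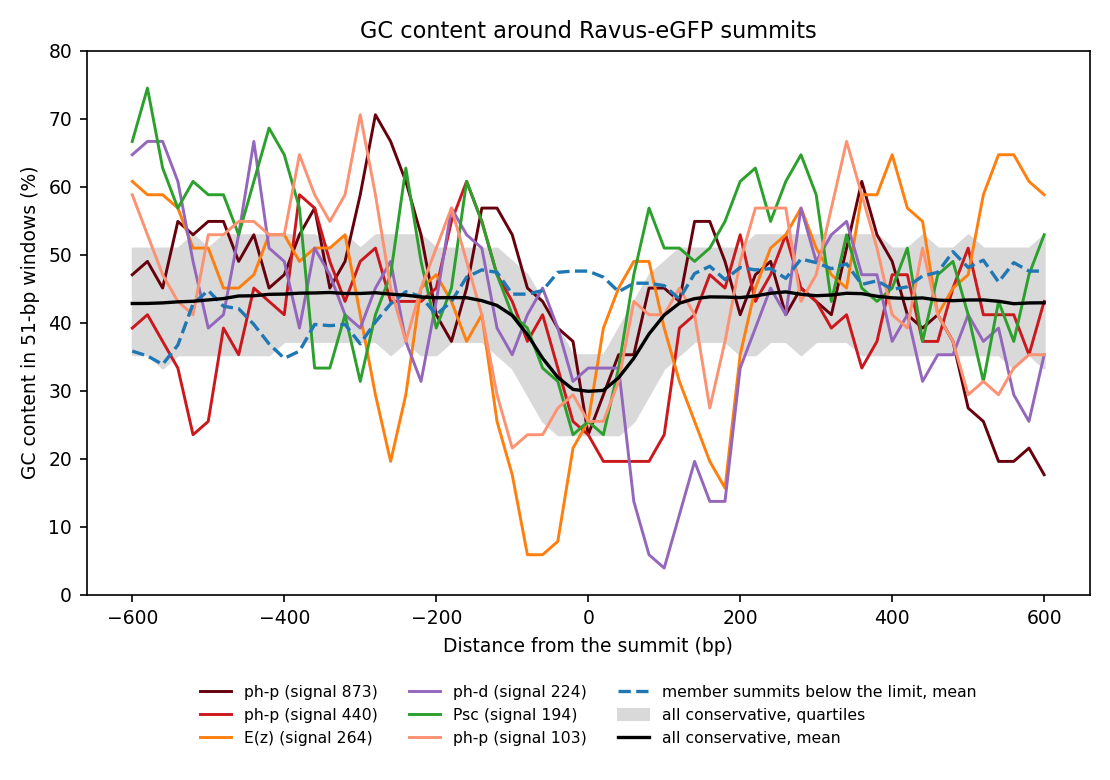
GC content in 51 bp windows by distance from the summit in bp, read on the plus strand, for the 6 conservative peaks at Polycomb group genes (thin coloured lines), for the mean of the 11 weaker summits at these genes (dashed blue) and for all conservative peaks (black mean, grey quartiles). The 6 lines dip at or beside the summit, with minima of 3.92% at ph-d and 5.88% at E(z), and the dashed line shows no dip.

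Within 50 bp of the summit, the longest runs of A and T at the 6 peaks were close in length to those of all conservative peaks. The longest run was 14, 9 and 10 bp at the ph-p peaks of signal 873, 440 and 103, 6 bp at ph-d, 11 bp at Psc and 12 bp at E(z), with a median of 10.5 bp, against 11 bp for all conservative peaks. A run of 14 bp or more was present in 31.9% of all. At the printed summits of Pc, pho and esc the longest run was 7, 8 and 10 bp. Of 6 short motifs searched on both strands in these windows, GAGAG, a core of the GAGA factor site, was in 0 of 6, against 8.15% of all. GCCAT, the core of the Pho site, was in 0 of 6 (11.2% of all), GTGTGT in 0 (3.33%) and ATATATAT in 0 (4.01%). TATAAA was in 2 of 6 (27.0%) and GAAAA in 2 of 6 (48.8%), in both cases at ph-p. A match or its absence describes these letters in these windows and says nothing of whether a factor binds. At ph-d the stretch of lowest GC (3.92%) was centred 100 bp from the summit, wholly outside these windows. At E(z) the stretches of lowest GC (5.88%) were centred at -80 and -60 bp. The stretch at -80 bp lay wholly outside these windows and the stretch at -60 bp partly outside. Runs and motifs outside these windows were not searched for.

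All 6-letter words were also counted in the windows, and the words named here were picked after their counts were seen, so they carry no test. TACAAA, or TTTGTA on the other strand, was present at 5 of the 6 summits, the exception being the ph-p peak of signal 440, and in 246 of the 1472 conservative windows (16.7%). It was also in 2 of the 11 weaker summit windows at these genes, those of Pc and pho printed above. AAACAA was in 4 of 6 (20.8% of all), ATATAA in 4 (24.6%), ATTTTA in 4 (37.2%) and AAATAT in 4 (40.5%).

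A wider list of 36 Polycomb genes, the 10 members included, was described in the same way. It had a conservative summit at 9 genes, beside the 11.8% of all protein-coding genes given above, and 5 of the 26 other genes had one. By complex, conservative summits were found at 4 of 9 genes of PRC1, 1 of 8 of PRC2, 0 of 3 of PhoRC, 0 of 2 of the histone deubiquitinase PR-DUB and 4 of 13 recruiters and other genes. Kdm2, listed with PRC1, had no summit in any thresholded list. Its strongest summit in the ranked lists of the series had a signal of 230.8, above the conservative peaks of ph-d (224) and Psc (194). In the ranked lists of replicates 1 and 2 its strongest summit had 105.6 and 157.0, against 95.8 and 117.7 at ph-d. The IDR of the Kdm2 summit was not examined, so why it is absent from the thresholded lists is not known. Its absence from these counts does not show that it was unbound.

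The strongest of the other genes was Trl, which encodes the GAGA factor, with an intronic peak of signal 666 (rank 23) and a promoter peak of signal 142. In the replicates the intronic Trl peak had 330.7 in replicate 1 and 340.0 in replicate 2. Dsp1, which encodes an HMG-box protein, had a peak of signal 122 inside the gene and one of signal 165 outside it, 604 bp from the start site of CG9921. grh, which encodes the transcription factor Grainy head, had an intronic peak of signal 144. RYBP, a PRC1 subunit gene, had a peak of signal 91.4 that lay closest to lncRNA:CR44761, and lolal, a BTB-domain protein gene, had one of signal 88.9 at its start site. Both Trl peaks, the grh peak and the Dsp1 peak of signal 165 were in the thresholded lists of both replicates, whereas the Dsp1 peak of signal 122 and the RYBP and lolal peaks were in that of replicate 2 only. The RYBP and lolal peaks were absent from the further series list. Outside the conservative list, caly, the deubiquitinase gene of PR-DUB, had a summit of signal 91.9 in the further series list, 175 bp from the start of CG42837, and 62.6 in replicate 2. psq, a BTB-domain factor gene, had a thresholded summit in replicate 2 alone, with a signal of 40.1. In the ranked lists psq had 25 summits in replicate 1 and 26 in replicate 2. The gene is 59393 bp long and these lists hold 52143 and 37242 peaks. The counts were not set beside those of genes of like length.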

How the data were processed

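The authors deposited 8 peak lists on dm6: a ranked and a thresholded list per replicate, and 2 ranked and 2 thresholded lists for the series. The deposited signal is a value that the authors' peak caller gave each peak, on a scale that is not stated. The deposited score is a whole number derived from the IDR, the authors' log10 columns give the −log10 IDR up to a cap of 5, and the summit is an offset from the peak start. Thresholded peaks lay within an IDR of 0.01 (−log10 of 2). They were made from alignments, a control and 1 input that is not described, per the deposited file lists; the sources used here name neither aligner nor peak caller. Depth is unknown, so a gene without a peak may lie below detection.

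Each thresholded list was found whole in a ranked list, and the conservative list (1474 peaks, 1472 on the arms) was the main one. Genes and start sites came from Ensembl 115 (BDGP 6.54), without annotated transposable elements; member coordinates equalled those of RefSeq. A summit belonged to a gene when inside it or within 1000 bp. Overlap of 1 bp counted as shared. Ranks are by signal within a list. Sequence matches used blastn 2.17.0, and tables pandas 2.3.3. Gene assignment and counting were tested on simulated peaks. With 1 group no test was made. Although the rule for members uses no measured value, members, gene lists and words were chosen with earlier results of these data known. Named genes were the 10 members, listed Polycomb genes with a thresholded summit, genes sharing a member's summit, the 5 most like ph-p, and the peaks ranked beside its strongest. Genes lying nearest to a described peak (CG11309, CG9921, CG42837, lncRNA:CR44339 and lncRNA:CR44761) were named besides, after their values were seen. Kdm2 was also named after its values were seen. Coordinates are 1-based. Alternatives were other windows, lists, overlaps, promoter distances, single replicates and GC windows.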

Additional observations from a re-analysis of the deposited data

How the results depend on the processing

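Of 35 alternative values for the results on the Polycomb genes, 34 stayed close to the main one, meaning within a factor of 1.5, or within 1 SD over the 6 peaks for GC content. The number of promoter summits was 1 with a distance of 250 bp, against 3 with 500 bp. With summits inside the gene, or within 500 bp, ph-d left and 3 genes remained, and within 2000 bp Pc joined them, giving 5. Without replicate 1 and without replicate 2, the same 4 genes kept 6 summits each time. The wider list had 13 genes with a summit within 2000 bp, against 9, and 7 to 11 genes with a summit in the single replicates, with 11 in replicate 2 alone and 7 in replicate 1 alone, and the mean GC content at the summits was 26.9 to 29.0%. If the overlap had to cover 0.5 or more of both peaks, 4 of the 6 peaks were matched in both replicates. No paired analysis was possible because the series has 1 group. Depth is unknown, so genes without a peak have no detection limit that can be stated.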
